A study of Mus musculus with 6 samples.

Results

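MicroRNA host transcripts are long RNAs from which the hairpins of microRNAs are cut, and 5 of them were followed here by cap analysis of gene expression (CAGE): *Mir17hg*, *Mir22hg*, *Mir99ahg*, *Mir124a-1hg* and *Mir9-3hg*. They were named as a list and are 5 of the 35312 protein-coding and long non-coding genes of GENCODE vM21 that were counted. The study generated CAGE libraries from nuclear RNA of R08 mouse embryonic stem cells (mESCs), grown without feeders in serum with leukemia inhibitory factor, and of oli-neu mouse oligodendrocyte progenitor cells (mOPCs), grown with bFGF, PDGF-BB, T3 and L-thyroxine. There were 3 libraries of each, the cells were untreated, and each cell type is represented by 1 cell line, so that line and cell type cannot be told apart. CAGE captures the capped 5′ end of an RNA and reads the bases that follow it, and a tag therefore marks the 5′ end of an RNA at 1 position on 1 strand.

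A primary microRNA transcript is made by RNA polymerase II, and its hairpin is cut out in the nucleus by Drosha with its partner Dgcr8. The hairpin is exported, cut again by Dicer, and one arm is loaded into an Argonaute protein, which finds its targets mainly through the seed, a short run of bases near the 5′ end of the microRNA. Since the hairpins are cut from the host, a start must lie upstream of a hairpin to supply it. *Mir17hg* carries the miR-17/92 cluster, known for its role in proliferation, and *Mir22hg* carries miR-22. *Mir99ahg* carries miR-99a, let-7c and miR-125b, and the hosts of miR-124 and miR-9 are best known from neurons and neural progenitors.

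The 5 hosts contain 13 annotated precursors on their strand, and 11 of them, with 21 mature microRNAs and 19 seeds, were found in the RefSeq microRNA table of build GRCm38.p6. The sequences below are shown because they are the products of these hosts. Each is written 5′ to 3′ as RNA with its seed, bases 2 to 8, in capitals. The first pair is grouped by its shared seed, as is the second pair.
mmu-miR-17-5p: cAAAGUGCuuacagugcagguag
mmu-miR-20a-5p: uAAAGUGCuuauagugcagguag
mmu-miR-19a-3p: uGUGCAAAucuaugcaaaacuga
mmu-miR-19b-3p: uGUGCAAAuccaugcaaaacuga
mmu-miR-18a-5p: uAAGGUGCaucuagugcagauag
mmu-miR-92a-3p: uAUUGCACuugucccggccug
mmu-miR-22-3p: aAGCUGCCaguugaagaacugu
mmu-miR-99a-5p: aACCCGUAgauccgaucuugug
mmu-let-7c-5p: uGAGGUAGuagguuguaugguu
mmu-miR-125b-5p: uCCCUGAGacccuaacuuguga
mmu-miR-9-5p: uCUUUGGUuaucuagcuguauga
mmu-miR-9-3p: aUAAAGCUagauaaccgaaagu
The first 6 come from *Mir17hg* (chr14:115042879-115046727, plus strand, 1 transcript), where their precursors lie in exonic sequence. miR-22 comes from an exon of *Mir22hg* (chr11:75461539-75466676). The precursors of miR-99a, let-7c and miR-125b lie in introns of *Mir99ahg* (chr16:77236317-77773427, 17 transcripts), and that of miR-9 lies in an intron of *Mir9-3hg* (chr7:79500026-79534403). *Mir124a-1hg* (chr14:64587331-64593961) holds the precursors Mir124a-1 and Mir3078. All 5 hosts are annotated on the plus strand, and all coordinates are of mm10.

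Libraries held 16657021 to 40928704 tags, and the smallest library sets the coarsest step. Tags were scaled to 1000000 tags per library and are given as tags per 1000000 (TPM). The most used single position took 0.508 to 0.667% of the tags of an mESC library and 5.38 to 5.92% of those of an mOPC library. The 6 mESC markers (*Pou5f1*, *Nanog* and others) were all lower in mOPCs, with *Pou5f1*, *Nanog*, *Zfp42* and *Dppa5a* at 0 there. The 6 mOPC markers (*Olig2*, *Sox10* and others) were all called higher, but *Pdgfra* rose only from 5.51 ± 0.165 to 8.33 ± 0.444 TPM (SD, n = 3 each). The summed level of 4 markers of differentiated oligodendrocytes was 2.40 to 3.20 TPM in mESCs and 247 to 283 in mOPCs, with all 4 called higher. Of 5 neuronal markers 2 were called higher (*Syt1*, *Gap43*) and 3 lower, with *Rbfox3*, *Snap25* and *Stmn2* at 0 in mOPCs; the summed level was 291 to 317 in mESCs and 433 to 510 in mOPCs. The 4 astrocyte markers summed to 46.7 to 50.7 in mESCs and 82.7 to 94.8 in mOPCs, mostly from *Slc1a3* (39.7 and 89.5). *Gfap* was also called higher, and *Aldh1l1* was called lower (8.48 and 0.0231). *Aqp4*, with 1 tag in mESCs and 0 in mOPCs, was not tested. The 4 fibroblast markers summed to 2.32 to 2.40 and 9.67 to 12.3, mostly from *Col1a1* (2.20 and 11.1). The other 3 had too few tags to be tested, and *Col1a2* went the other way, with 10 tags in mESCs and 0 in mOPCs. The part of other cell types or cell states in the results below was not tested. The labels do not say that the 3 libraries of a line came from separate cultures, so p-values measure the spread between these libraries, which may be technical.

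Tags within 500 bp of an annotated 5′ end were summed per gene, and the comparison asked which hosts start more often in one line than in the other. *Mir99ahg* and *Mir9-3hg* were called higher in mOPCs, *Mir17hg* and *Mir124a-1hg* were called lower, and *Mir22hg* was not called. Calls are common between these lines: of 16707 genes tested with edgeR's quasi-likelihood test, 43.4% were called higher in mOPCs and 47.8% lower at a Benjamini-Hochberg adjusted p under 0.05. That 4 of 5 hosts were called is therefore close to the background. Fewer cells with a transcript and less RNA per cell cannot be told apart in such bulk libraries.

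**Figure D1:**
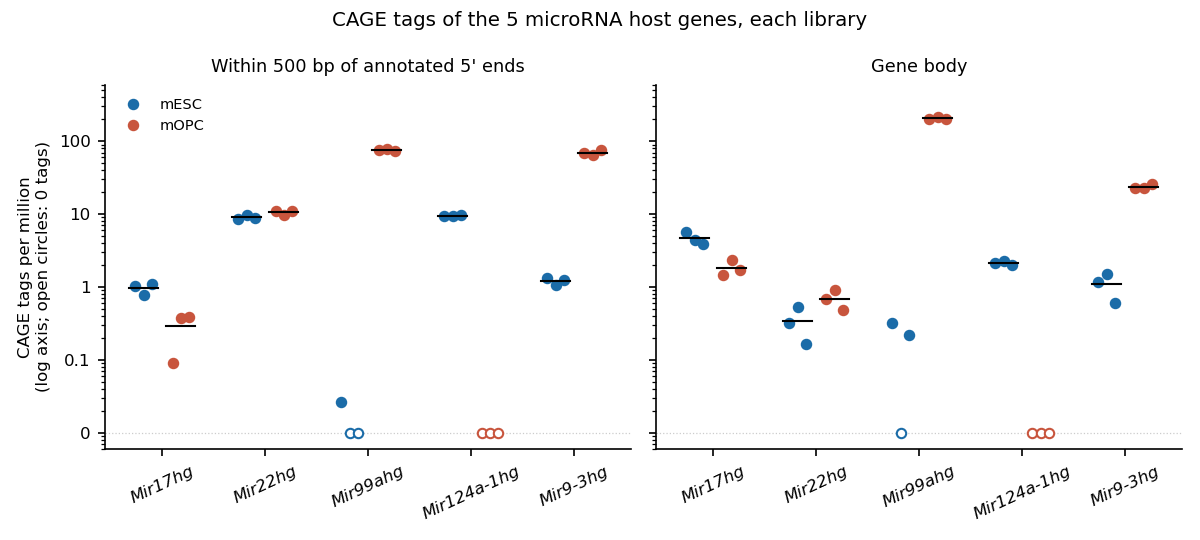
TPM of each of the 5 host genes in each of the 6 libraries, on a log axis, within 500 bp of annotated 5′ ends on the left and in the rest of the gene on the right; bars are means of 3 libraries, drawn where no library is at 0, and open circles mark libraries with 0 tags. *Mir99ahg* and *Mir9-3hg* lie far higher in mOPCs, *Mir124a-1hg* is at 0 in all mOPC libraries, and *Mir22hg* overlaps between the lines at its 5′ ends.

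*Mir99ahg*, the host of miR-99a, let-7c and miR-125b, was almost silent in mESCs and strongly used in mOPCs. Its 5′ ends had 0.0264, 0 and 0 TPM in the 3 mESC and 75.5, 79.2 and 74.5 in the 3 mOPC libraries. This rests on 1 tag against 6991 tags, a ratio of 5563.7 with an exact 95% Clopper-Pearson interval of 998 to 219785.5, which covers counting error only. The gene passed the filter on low counts through its mOPC tags alone, so the edgeR adjusted p of 7.53e-67 adds no support. The rest of the gene behaved alike: 0.317, 0 and 0.217 TPM in mESCs and 203, 218 and 203 in mOPCs, a log2 fold change of 9.06 ± 0.17 (SE, n = 3 and 3, edgeR adjusted p = 3.07e-73). It was 9.96 without mESC replicate 1, 8.71 without mESC replicate 2 and 9.87 when scaled by library totals alone. DESeq2 gave 9.11 with a wider SE of 0.37. The rest of the gene also passed the filter through its mOPC tags, so its p-value adds no support either. Of 14516 genes tested for tags in the body, outside the windows at 5′ ends, 41.1% were called higher in mOPCs and 40.8% lower.

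The 16 annotated 5′ ends of *Mir99ahg* fell into 7 windows, and a pair of them carried nearly all 5′ end tags of mOPCs. The fourth window held 48.0 ± 0.864% (SD, n = 3) of the gene's 5′ end tags and the fifth 48.1 ± 0.985%, so their shares did not differ beyond their spread. The first, at the far 5′ end of the gene, held 2.96 ± 0.426%, and the other four held under 1% each. The fourth and the fifth window each had 0 tags in all mESC libraries and 3343 and 3370 tags in mOPCs, at least 887-fold and at least 894-fold higher when the floor of 3 counts over the group is used for mESCs. Over all 21820 windows tested, 41.9% were called higher in mOPCs and 47.6% lower. The first window had 211 tags against 1 tag.

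Tags inside these windows were spread over several starts. Each window joins several annotated 5′ ends, 2 in the fourth and 3 in the fifth, so its span includes the distance between separate starts. In the fourth, 1271 tags lay within 70 bp and 1004 within another 67 bp, and in the fifth 1271 lay within 123 bp. The leading position of the fourth window, 77500186, held 320 of 3343 tags (9.57%), and the central 80% of the tags spanned 561 bp. The leading position of the fifth, 77594371, held 219 of 3370 tags (6.50%) over 964 bp. Both leading positions were the same in all 3 mOPC libraries. The stretch of the annotated first exon around the fifth window's leading start is printed because it carries 524 tags within 1 exon, with the leading start in capitals (GENCODE vM21, chr16:77594366-77594411, plus strand).
Mir99ahg start: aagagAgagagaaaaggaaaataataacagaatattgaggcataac

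A large part of the starts within *Mir99ahg* lay outside its annotated 5′ ends. This was seen by joining used positions on the strand, each with at least 10 tags over the 6 libraries, into clusters wherever neighbours lay within 20 bp, with no use of the annotation. The step was added after the tags at annotated ends had been seen. *Mir99ahg* held 72 clusters, of which 54 lay more than 500 bp from any annotated 5′ end of the gene, and these 54 held 64.5% of the clusters' tags. Other long non-coding genes overlap *Mir99ahg* on its strand, among them *Gm37466*, *Gm38071* and *C130023A14Rik*. None shared its window tags, but some tags in the body and in these clusters may belong to them. All 27 clusters with enough tags to be tested were called higher in mOPCs, while 47.2% of the 51662 clusters tested genome-wide were called higher and 43.9% lower. Such a count over tested clusters is no support, since each passed the filter through its mOPC tags.

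The most used cluster of the gene, chr16:77421609-77421797, lay in an intron 35391 bp upstream of the nearest annotated 5′ end of *Mir99ahg*. It had 51.9, 52.7 and 48.9 TPM in mOPCs and 0.0528, 0 and 0 in mESCs. The second, chr16:77236987-77237080, lay in exonic sequence 713 bp downstream of an annotated end, with 23.5, 27.2 and 26.5 TPM in mOPCs and 0 in all mESC libraries. It lay just outside the first window. The third, chr16:77644585-77644656, is intronic, with 19.8, 26.8 and 23.6 TPM in mOPCs and 0 in mESCs, and its top position lay 1624 bp upstream of the Mir125b-2 precursor. No other gene on the strand had an annotated 5′ end closer to these 3 top positions than 1624 bp, and there it was the precursor itself.

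**Figure D2:**
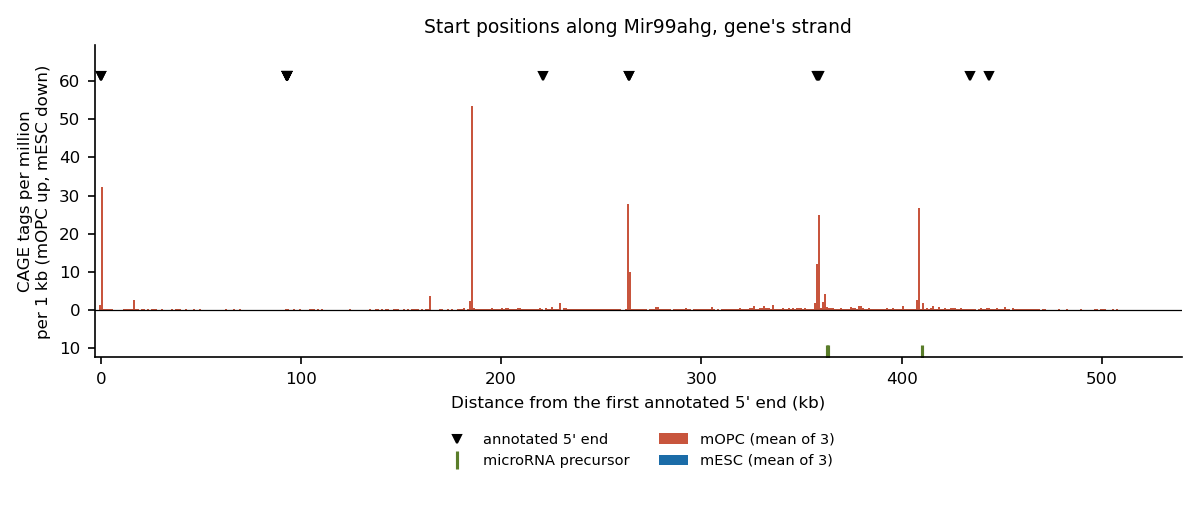
Mean TPM of 3 libraries per 1 kb along *Mir99ahg*, by distance from the first annotated 5′ end in kb, with mOPCs above the line and mESCs below; triangles mark annotated 5′ ends and green ticks microRNA precursors. The tallest bars of mOPCs include 3 with no triangle over them, or with one only just upstream, and mESCs show almost no tags.

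*Mir9-3hg*, the host of a miR-9 precursor, differed both in level and in the place of its starts. Its 5′ ends had 1.32, 1.08 and 1.25 TPM in mESCs and 69.6, 63.9 and 76.4 in mOPCs, a ratio of 56.8 and a log2 fold change of 5.75 ± 0.14 (SE, edgeR adjusted p = 8.46e-61). With windows of 100 bp to either side, the log2 fold change was 7.85, and with a library left out it was 5.61 to 5.87. The body had 1.19, 1.5 and 0.597 TPM in mESCs and 22.8, 22.5 and 25.6 in mOPCs (log2 fold change 3.6 ± 0.15, edgeR adjusted p = 4.47e-45). Its log2 fold change was 4.41 when scaled by library totals alone and 3.37 to 3.78 with a library left out. The groups did not overlap in either measure. The long non-coding genes *A330074H02Rik*, *2900037B21Rik* and *Gm37608* overlap *Mir9-3hg* on its strand, and some of its body tags may belong to them.

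The 7 annotated 5′ ends of *Mir9-3hg* fell into 3 windows. The first, at the 5′ end of the gene, held 99.6, 99.2 and 99.4% of the 5′ end tags in the mOPC libraries and 0, 5.56 and 0% in the mESC libraries. The means were 99.4 ± 0.187% and 1.85 ± 3.21% (SD, n = 3 each), and the two-sided exact permutation test gave p = 0.1, the smallest that 3 against 3 libraries allow. The first window held 1 tag in mESCs and 6458 in mOPCs. The second window, within the gene, moved the other way, from 1.32, 1.02 and 1.25 TPM in mESCs to 0.0912, 0.312 and 0.318 in mOPCs, a log2 fold change of -2.43 ± 0.34 (edgeR adjusted p = 7.49e-11). The sum over the gene thus hides a low, separate signal of mESCs. That signal was diffuse, with 10 of 90 tags at its leading position and the central 80% of the tags over 830 bp, so it has no defined start.

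In mOPCs the first window had a focused start, at position 79500050 in all 3 libraries, 12 bp downstream of the nearest annotated 5′ end. It took 1999 of 6458 tags (31.0%), and the central 80% of the tags spanned 63 bp. The last 120 bases of the RefSeq promoter are printed because they hold these starts (GRCm38.p6, chr7:79499956-79500075, plus strand). Capitals mark the 4 positions that each held over 5% of the promoter's mOPC tags, 73.9% together.
Mir9-3hg promoter: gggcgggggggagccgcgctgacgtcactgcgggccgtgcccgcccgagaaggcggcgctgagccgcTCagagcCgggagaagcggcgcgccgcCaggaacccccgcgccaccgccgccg
The full promoter of 300 bases had a GC content of 75.0% and 35 CpG dinucleotides, more than 93.0% of 32817 RefSeq promoters of that length, whose median was 7. It held TGACGTCA once and GGGCGG on 2 occasions, counting both strands and with no match overlapping another, and neither TATAAA nor CCAAT. Of all promoters, 1.79% held TGACGTCA, 35.6% held GGGCGG, 13.6% held TATAAA and 37.4% held CCAAT. These matches describe the letters and not binding.

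**Figure D3:**
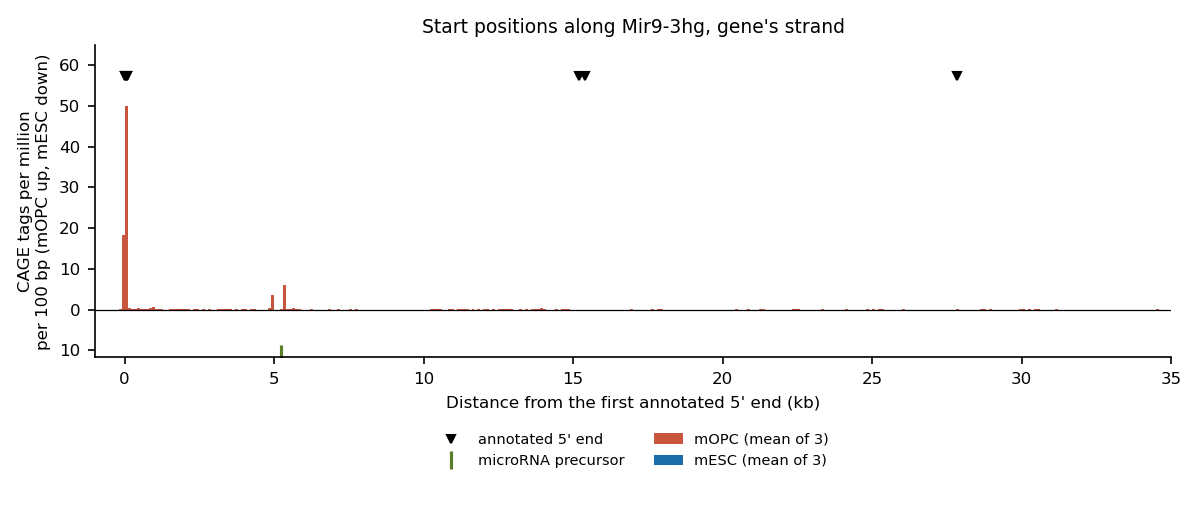
Mean TPM of 3 libraries per 100 bp along *Mir9-3hg*, by distance from the first annotated 5′ end in kb, with mOPCs above the line and mESCs below; triangles mark annotated 5′ ends and the green tick the Mir9-3 precursor. Tags of mOPCs pile up at the first annotated end and, lower, at the precursor and just before it.

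At most promoters with many tags, the leading positions as deposited lay 1 base before the usual initiator. RNA polymerase II tends to start at a purine that follows a pyrimidine. At 6066 RefSeq promoters with at least 500 tags at their leading position, the deposited position was such a purine in 1.10%, and the next base downstream was one in 89.3%, in the same share on the plus strand and on the minus strand. In the printed *Mir9-3hg* promoter, and in the *Mir124a-1hg* stretch printed below, the leading capital is likewise followed by the purine of such a pair. This is not so in the printed stretches of *Mir99ahg* and *Mir22hg*, where the leading capital is itself a purine. Positions are given here as deposited.

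*Mir124a-1hg*, a host of miR-124, showed the opposite pattern, with all of its tags in mESCs. Its 5′ ends had 9.40, 9.37 and 9.71 TPM in mESCs and 0 in all 3 mOPC libraries. With 691 tags against 0, mESCs were at least 289-fold higher when the floor of 3 counts over the group stands for mOPCs (edgeR adjusted p = 1.35e-43). The gene passed the filter on low counts through its mESC tags alone, so this p-value adds no support. The body gave 2.16, 2.28 and 2.01 TPM in mESCs and 0 in mOPCs, at least 65.8-fold higher in mESCs. No tag of any mOPC library fell in the gene or the 3 kb upstream of it, against 855 tags in mESCs.

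The 4 annotated 5′ ends of *Mir124a-1hg* fell into 2 windows, both used in mESCs. The first held 55.3, 56.4 and 60.3% of the 5′ end tags, or 57.4 ± 2.63% (SD, n = 3), and the second 42.6 ± 2.63%. The leading position of the first, 64587330, lay 1 bp before an annotated 5′ end and held 58 of 393 tags (14.8%), the same position in all 3 mESC libraries. In the second window the leading position over the 3 libraries, 64589741, held 36 of 298 tags, and the libraries differed in their own leading position by up to 9 bp. The stretch around it is printed as the start within an annotated exon, with the leading position in capitals (GENCODE vM21, chr14:64589701-64589781, plus strand).
Mir124a-1hg start: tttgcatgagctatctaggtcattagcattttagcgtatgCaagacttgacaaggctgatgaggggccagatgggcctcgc

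*Mir22hg*, the host of miR-22, had overlapping levels at its annotated 5′ ends in both lines and started there most often at the same base. Its 5′ ends had 8.47, 9.85 and 8.74 TPM in mESCs and 10.9, 9.81 and 11.2 in mOPCs, and the groups overlapped. The log2 fold change was 0.19 ± 0.13 (SE, edgeR adjusted p = 0.154). Scaled by library totals alone, it was 0.25 with an adjusted p of 0.0469, so the call depends on the scaling. The body held 0.163 to 0.540 TPM in mESCs and 0.489 to 0.902 in mOPCs (log2 fold change 0.21 ± 0.39, edgeR adjusted p = 0.627), from 24 and 61 tags. A cluster 878 bp upstream of the annotated ends had 2.58 ± 0.383 and 3.53 ± 0.766 TPM (SD, n = 3 each) and was not called. With 3 kb upstream, the gene had 12.2, 13.1 and 11.1 TPM in mESCs and 16.6, 14.8 and 14.8 in mOPCs. These groups did not overlap, but the gene was not called (log2 fold change 0.22 ± 0.11, edgeR adjusted p = 0.0609).

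Position 75461673 led in each of the 6 libraries, with 17.3% of the window's tags in mESCs and 22.0% in mOPCs. The central 80% of the tags spanned 47 and 45 bp. The stretch is printed because both lines share the start, in capitals (GENCODE vM21, chr11:75461633-75461713, plus strand).
Mir22hg start: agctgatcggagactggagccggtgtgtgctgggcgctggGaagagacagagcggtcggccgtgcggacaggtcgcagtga
The protein-coding gene *Tlcd2* has an annotated 5′ end 42 bp downstream of this position on the same strand, and 100% of the tags in the windows of *Mir22hg* also lie in windows of *Tlcd2*. Tags cannot be told apart between these genes. The opposite strand of the window also carried tags, 6.20 to 7.62 TPM in mESCs and 6.43 to 7.91 in mOPCs, and these ranges overlapped.

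*Mir17hg*, the host of the miR-17/92 cluster, gave different answers depending on where its start was taken to be. Within 500 bp of its only annotated 5′ end it had 1.03, 0.780 and 1.09 TPM in mESCs and 0.0912, 0.381 and 0.391 in mOPCs, a log2 fold change of -1.69 ± 0.34 (SE, edgeR adjusted p = 4.73e-06). These were few tags, 72 and 29, spread over 56 and 27 positions, with at most 3 tags at any of them in either line. With windows of 1000 bp the log2 fold change was 1.05 (adjusted p = 8.28e-11), in the opposite direction. With windows of 100 bp the gene had too few tags to be tested.

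The main starts of the locus lay upstream of the annotated gene, in 2 clusters more than 500 bp from its 5′ end. No GENCODE vM21 gene of any kind on either strand overlaps the stretch that holds them, chr14:115040918-115042317. Tags mark 5′ ends only, so whether RNAs from these 2 clusters run into *Mir17hg* and its hairpins was not tested. The far cluster, with its top position at 115040968, 1911 bp upstream, had 21.7, 16.0 and 17.2 TPM in mESCs and 15.4, 15.5 and 15.9 in mOPCs. Its log2 fold change was -0.58 ± 0.12 (edgeR adjusted p = 9.79e-07) and -0.25 (adjusted p = 0.0294) with scaling by library totals alone. The near cluster, with its top position at 115042280, 599 bp upstream, had 2.09, 2.04 and 2.50 TPM in mESCs and 8.26, 8.01 and 8.62 in mOPCs, a ratio of 3.83 and a log2 fold change of 1.58 ± 0.18 (edgeR adjusted p = 7.68e-19). The far cluster was the larger in every library, and the near one rose in mOPCs.

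Of the tags in both upstream clusters, the far one held 91.2, 88.7 and 87.3% in mESCs and 65.1, 66.0 and 64.8% in mOPCs. The means were 89.1 ± 1.98% and 65.3 ± 0.621% (SD, n = 3 each), which did not overlap (two-sided exact permutation p = 0.1, the smallest the design allows). Both clusters together held 75.3% of the tags of the gene with its 3 kb upstream in mESCs and 85.6% in mOPCs. That total was 31.8, 24.4 and 25.4 TPM in mESCs and 27.4, 27.6 and 28.7 in mOPCs, with a log2 fold change of -0.10 ± 0.10 (edgeR adjusted p = 0.330). The groups overlapped. For genes with their 3 kb upstream, 44.9% of the 20223 tested were called higher in mOPCs and 45.6% lower. The balance of the 2 upstream starts thus did not overlap between the lines, while no difference of the total was detected.

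**Figure D4:**
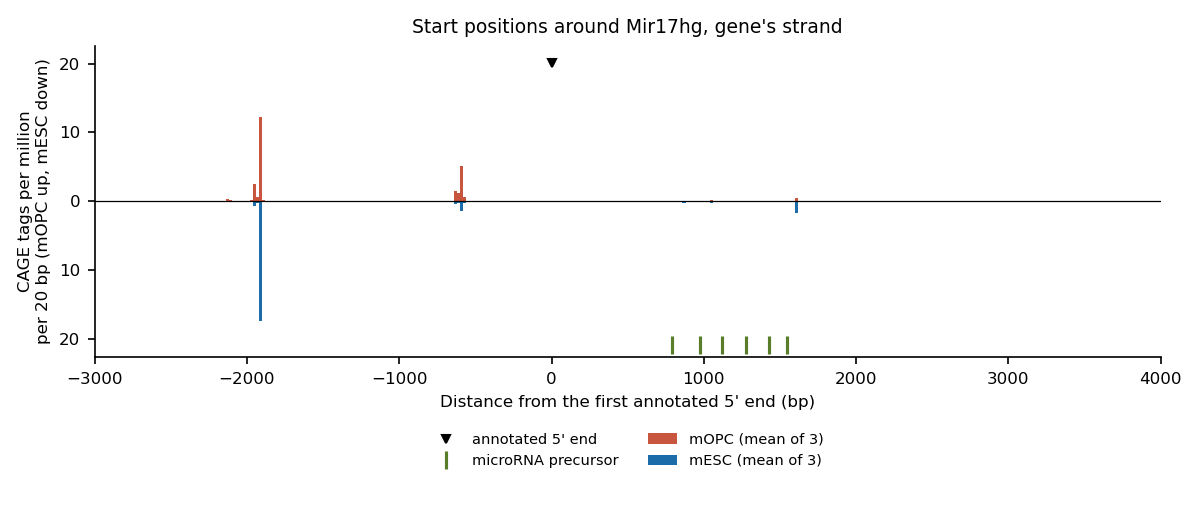
Mean TPM of 3 libraries per 20 bp from 3 kb upstream to 4 kb downstream of the annotated 5′ end of *Mir17hg*, with mOPCs above the line and mESCs below; the triangle marks the annotated 5′ end and green ticks the 6 precursors of the cluster. Both lines use a start 1911 bp upstream, mOPCs use the start 599 bp upstream more than mESCs do, and mESCs show the taller bar behind the last precursor.

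The body of *Mir17hg* fell, from 5.75, 4.44 and 3.85 TPM in mESCs to 1.46, 2.36 and 1.69 in mOPCs (log2 fold change -2.21 ± 0.16, edgeR adjusted p = 1.92e-24). Scaled by library totals alone, which moved the median of all genes to 0.83, its log2 fold change was -1.39. About 50.7% of these body tags in mESCs, 184 of 363, and 35.5% in mOPCs, 60 of 169, began at a few bases behind the precursors. Without those bases the body had 2.42 ± 0.220 TPM in mESCs and 1.17 ± 0.431 in mOPCs (SD, n = 3 each), and the groups did not overlap (exact permutation p = 0.1).

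Tags at the end of hairpins formed a pattern of their own. Drosha cuts the host on the 3′ side of the 3p arm, and the downstream RNA that is left begins there. All 11 precursors with a known 3p arm had tags at bases 1 to 3 behind the arm, and 8 of the 11 (72.7%) had at least 10. Among 730 such arms genome-wide, which include the 11, 56 (7.67%) had at least 10. Bases 1 to 3 were chosen after seeing these data, so the 2 shares are no independent comparison. The first base alone had been planned, and there 37 of the 730 arms had at least 10 tags. At that base Mir17, Mir18 and Mir20a had 0 tags in both lines, and Mir9-3 had 0 in mESCs and 8 in mOPCs. Mir92-1 had 123 and 39 there, and Mir125b-2 had 0 and 116. How far the hosts of the other arms are used in these lines was not matched, and its part was not tested. Whether these RNAs carry a cap was not tested either. The bases are counted from positions as deposited, and whether the offset of 1 base seen at promoters applies here was not tested.

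Behind the 3p arm of miR-92a-3p, the last hairpin of *Mir17hg*, there were 85, 29 and 18 tags in the 3 mESC and 9, 12 and 20 in the 3 mOPC libraries. Of the tags within 50 bp on either side, 87.4% lay at these bases. The cluster there had a log2 fold change of -2.28 ± 0.30 (edgeR adjusted p = 1.81e-14). The body and the far upstream cluster (log2 fold change -0.58) also fell, and the near upstream cluster rose. The tags behind this hairpin are themselves part of the body, 132 of 363 tags in mESCs and 41 of 169 in mOPCs. The other hairpins of the cluster had fewer tags, 19 and 2 at Mir17, 19 and 14 at Mir18, 11 and 2 at Mir19b-1 in mESCs and mOPCs, and 2 or fewer at Mir19a and Mir20a.

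Behind the 3p arm of miR-9-3p in *Mir9-3hg* there were 1, 3 and 0 tags in mESCs and 133, 154 and 273 in mOPCs, 98.8% of the tags within 50 bp on either side. Nearly all began at the second base behind the arm, at position 79505341, where the log2 fold change was 6.32 ± 0.37 (edgeR adjusted p = 1.67e-65). It was 7.69 without mESC replicate 2, within a range of 5.75 to 7.69 over the libraries left out in turn. DESeq2 gave 6.34 with a wider SE of 0.75. These bases held 25.5% of the body tags of the gene in mOPCs. A further cluster with its top at 79504948, 316 bp before the precursor, had 0.317, 0.300 and 0.109 TPM in mESCs and 2.28, 2.70 and 3.08 in mOPCs (log2 fold change 3.05 ± 0.32, edgeR adjusted p = 1.22e-21). The cluster just before it, with its top at 79504921, had 0.380 ± 0.0953 TPM in mESCs and 0.462 ± 0.101 in mOPCs (SD, n = 3) and was not called (log2 fold change -0.09 ± 0.39, edgeR adjusted p = 0.829).

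The hairpins of *Mir99ahg* had tags in mOPCs only, and the amounts were unequal. Behind Mir125b-2 there were 26, 40 and 52 tags in the mOPC libraries and 0 in mESCs, at least 31.3-fold higher over the floor of 3 counts. Behind Mirlet7c-1 there were 3, 3 and 5 tags, and behind Mir99a 3, 0 and 3. At Mir22 there were 4 tags in mESCs and 8 in mOPCs, too few for a comparison.

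**Figure D5:**
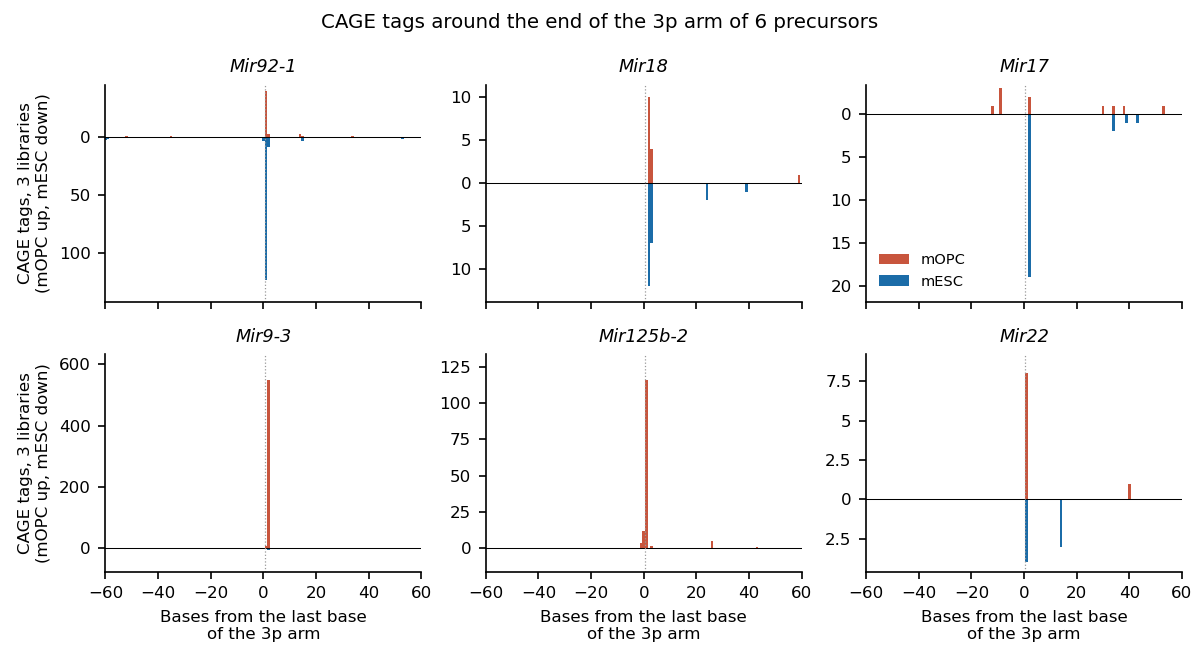
Tags of 3 libraries pooled at each base from 60 bases before to 60 bases behind the last base of the 3p arm for 6 precursors, with mOPCs above the line and mESCs below, each panel on its own scale; the dotted line marks the end of the arm. In each panel the tallest bar stands at the first or second base behind the arm, with 132 tags in mESCs at bases 1 to 3 for Mir92-1 and 560 in mOPCs for Mir9-3.

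Other genes that carry microRNAs with a seed of the members were counted in the same way. There were 14 such genes, of which 8 were called higher in mOPCs and 6 lower, where 43.4% and 47.8% of all genes tested were. *3110039I08Rik*, *Gm49317* and *Gm28119* overlap at 1 locus, and counted once, as *3110039I08Rik*, they leave 6 genes higher and 6 lower, with a median log2 fold change of 0.98 against -0.12 over all genes tested. *C130071C03Rik*, which holds another miR-9 precursor, Mir9-2, had 1.02 ± 0.143 TPM in mESCs and 90.9 ± 4.99 in mOPCs (SD, n = 3), and *Gm3764*, with Mir9-1, had 0.332 ± 0.233 and 5.00 ± 0.293. *Spaca6*, over Mir125a, Mir99b and Mirlet7e, had 6.54 ± 0.456 and 55.8 ± 2.77. *3110039I08Rik*, over Mir100 and Mir125b-1, had 0.542 ± 0.330 and 520 ± 29.5, and its tags may be shared with the overlapping genes. In the lower group stood *Mcm7*, a DNA replication helicase subunit over Mir106b, Mir93 and Mir25, relatives of the miR-17/92 cluster, with 223 ± 3.14 and 107 ± 9.29 TPM. Of the hosts of let-7, *6720427I07Rik*, *Lncppara* and *Spaca6* rose, and *Huwe1* and *Wdr82* fell.

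Of the 6 other annotated genes named as microRNA hosts, *Mir670hg* was called higher in mOPCs (4.61 ± 0.111 and 54.7 ± 3.51 TPM), and *Mir142hg* and *Mirg* were called lower, both at 0 in all mOPC libraries. *Mir124-2hg*, *Mir155hg* and *Mir133a-1hg* had too few tags to be tested. *Mir124-2hg*, which like *Mir124a-1hg* hosts miR-124, had 0.168 ± 0.0568 TPM in mESCs and 0.0116 ± 0.020 in mOPCs.

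Of 22 genes that process microRNAs or act with them, 11 were called higher in mOPCs, 9 lower and 2 not called, where 43.4% and 47.8% of all genes tested were called higher and lower. The median log2 fold change of the 22 genes was 0.16, against -0.12 over all genes tested. The microprocessor genes *Drosha* and *Dgcr8* were slightly higher, by 0.26 ± 0.08 and 0.24 ± 0.09 on the log2 scale (SE), and *Dicer1* slightly lower, by -0.23 ± 0.09. *Xpo5*, which exports the hairpins, and *Ran*, its GTPase partner, were lower (log2 fold changes -0.85 ± 0.09 and -3.30 ± 0.09). *Ago4* (2.91 ± 0.17) and *Prkra*, a Dicer partner (2.08 ± 0.10), were higher. *Lin28a* and *Lin28b*, whose proteins block the maturation of let-7, had 100 ± 4.02 and 150 ± 8.61 TPM in mESCs and 0.0116 ± 0.020 and 0.791 ± 0.105 in mOPCs. For *Lin28a* the mOPC value rests on 1 tag.

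Of 8 textbook regulators of these hosts, 2 were called higher and 6 lower, against 43.4% and 47.8% of all genes tested. *Myc*, an activator of *Mir17hg*, rose from 23.5 ± 1.84 to 364 ± 24.1 TPM, while *Mycn*, its relative, fell from 201 ± 13.4 to 29.1 ± 4.24. *E2f1*, *E2f2* and *E2f3* fell by 0.47, 1.74 and 1.04 on the log2 scale. *Rest*, a repressor of neuronal genes that include the miR-124 and miR-9 hosts, fell from 158 ± 6.75 to 31.3 ± 1.90, and its partner *Rcor1* rose by 0.60 ± 0.11. *Ptbp1*, a splicing repressor that miR-124 targets, fell from 335 ± 14.5 to 117 ± 9.49.

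The genes whose 5′ end tags were most like those of each host over the 6 libraries were found by the Euclidean distance between log2 TPM. They were *Nlgn1* for *Mir99ahg* (0.11), *Cyp27a1* for *Mir124a-1hg* (0.08), *Tmem132b* for *Mir9-3hg* (0.31), *Gm48772* for *Mir22hg* (0.23) and *Tmod4* for *Mir17hg* (0.48). The next in line were *Gm40117* for *Mir99ahg* (0.51), *Ngef* for *Mir9-3hg* (0.44), *1700001G11Rik* for *Mir22hg* (0.25) and *Calml4* for *Mir17hg* (0.93). The measure compares levels alone.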

How the data were processed

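CAGE libraries of nuclear RNA from mESCs (n = 3) and mOPCs (n = 3) were used. Deposited files list, for each library and strand, mm10 positions with the raw count of tags that begin there, not normalized. The authors prepared cap-trapped libraries, removed reads with ambiguous bases, trimmed linkers and kept unique alignments. The submitters' processing notes name CASAVA 1.8 and BWA 0.5.9, whereas the paper's methods name another aligner, and which one made the files was not settled. Unique alignment of short tags can lose tags in near-identical copies. Libraries held 16657021 to 40928704 tags, and intervals and floors of 3 counts cover counting error only.

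Tags were counted on the gene's strand around GENCODE vM21 5′ ends (500 bp to either side, overlapping windows merged) and in the rest of the gene, for 21938 protein-coding and 13374 long non-coding genes. The study's methods name GENCODE M14, which was not used here. edgeR 4.0.16 (R 4.3.3; quasi-likelihood, robust, TMM on library totals, filterByExpr) was fitted to each whole table, with Benjamini-Hochberg adjustment; DESeq2 1.42.0, other scalings, no filter, other windows, a replicate block and leaving out each library were alternatives. The fits were tested on simulated counts. Fold changes are mOPC over mESC. Shares were compared by two-sided exact permutation tests. Start clusters, genes with 3 kb upstream, bases 1 to 3 behind hairpins, the check of initiator bases and the count of overlapping hosts of seed relatives as 1 were added after seeing the data. Members and lists were chosen with earlier results of these data known. The rule for named genes took the members, microRNA processing genes, textbook regulators, other annotated hosts, hosts of precursors sharing a seed, overlapping genes and the 2 genes nearest in pattern, of which 1 is not reported here. The listed names Zcchc11 and Zcchc6 were matched as *Tut4* and *Tut7* through RefSeq synonyms. Pairs of replicate libraries differed beyond counting noise, with chi-square per degree of freedom of 4.53 to 11.1. Sequences came from RefSeq tables (GRCm38.p6) and GENCODE transcripts. Python 3.11.15, numpy 2.4.6, pandas 2.3.3, scipy 1.17.1 and matplotlib 3.10.9 were used.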

Additional observations from a re-analysis of the deposited data

How the results depend on the processing

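Over the alternatives run, the called differences of *Mir9-3hg* (5′ ends and body), *Mir99ahg* (body), *Mir17hg* (body), the second window of *Mir9-3hg*, and the upstream and hairpin clusters given with a test kept their direction and their side of the threshold. *Mir17hg* at its annotated 5′ end did so except with windows of 1000 bp, where the log2 fold change was 1.05, since these windows reach the upstream start. Without TMM, *Mir22hg* passed the threshold at its 5′ ends (0.25, adjusted p = 0.0469) and in its body (1.02, adjusted p = 0.0107), while the median of all genes rose to 0.83 for body tags and the calls split into 8495 higher and 3963 lower, against 5968 and 5919 with TMM; relative to that median the body of *Mir22hg* does not stand far out. Its body value turned to -0.05 without mESC replicate 3 and to -0.01 without mOPC replicate 2, over a range of -0.05 to 0.54. The total of *Mir17hg* with 3 kb upstream, which was not called, turned to 0.02 without TMM and to 0.05 without mESC replicate 1 (range -0.19 to 0.05). Without a filter on low counts, 112129 clusters were called against 47079. The gap in the share of the first window of *Mir9-3hg* was 97.6 percentage points, 91.5 with windows of 100 bp, 99.9 with positions of at least 2 tags, and 96.6 to 99.4 with a library left out. After thinning every library to the smallest, 8 of 10 leading starts stayed, and the 2 that moved were the diffuse ones of *Mir17hg* and of the second window of *Mir9-3hg* in mESCs.

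Libraries with the same number did not deviate together (correlations -0.01, 0.04 and 0.00), so the numbers do not pair the libraries. With a replicate block, 15219 genes were called at 5′ ends, 11656 in bodies, 19369 windows, 46627 clusters and 18253 genes with 3 kb upstream, against 15238, 11887, 19528, 47079 and 18300. The counts limit what can be said of *Mir17hg* at its annotated end (72 and 29 tags), of the body of *Mir22hg* (24 and 61 tags) and of *Mir99ahg* in mESCs.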

Other observations

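Away from the strand of the hosts, the windows of *Mir99ahg* held 1 tag in mESCs and 48, 68 and 92 tags in the mOPC libraries, or 2.19, 2.36 and 2.25 TPM. Those of *Mir9-3hg* held 3 tags in mESCs and 1.32, 1.14 and 1.29 TPM in mOPCs. The windows of *Mir124a-1hg* held 0.95, 0.60 and 0.705 TPM on the opposite strand in mESCs and 0 in mOPCs, so each of these 3 hosts had opposite-strand tags in the line that used it. The windows of *Mir17hg* had at most 3 such tags in any library.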
